A study of Homo sapiens with 36 samples.

Results

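The genes described here encode 10 enzymes of serine, asparagine and proline synthesis and of the mitochondrial folate and cysteine steps that adjoin them. They were chosen by symbol (ASNS, PHGDH, PSAT1, PSPH, SHMT2, MTHFD2, ALDH1L2, PYCR1, ALDH18A1 and CTH) from the 60675 genes of the deposited count table, and each symbol matched 1 gene. These genes, and the lists set beside them below, were chosen with earlier results of these data known. Shares of all genes called therefore stand beside their counts as a description and do not test the lists. RNA sequencing covered SW1783, an established human astrocytoma cell line, and HT29, an established human colorectal adenocarcinoma cell line, in 36 libraries that form 12 groups of 3. In batch B, the treatment lasted 24 h and was an extract, made with hot water, of the processed root of Aconitum carmichaeli Debeaux (ACD) at 20 µg/mL (low dose), 100 µg/mL (medium dose) or 500 µg/mL (high dose), or its vehicle. In batch A, each line was exposed for 24 h to 10 µM wortmannin, an inhibitor of phosphoinositide 3-kinase used as the positive control, or to a vehicle of its own. By the sample labels the vehicle was 0.1% DMSO. Each line stands for 1 tumor, and the lines were kept in different media (Leibovitz's L-15 for SW1783, DMEM for HT29), so that a difference between the lines cannot be told apart from a difference between the media. The comparisons ask how far each dose and wortmannin moved each enzyme gene against the vehicle of its own batch, and whether the lines differed in that.

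PHGDH, PSAT1 and PSPH act in turn to make serine from a glycolytic intermediate, and SHMT2, MTHFD2 and ALDH1L2 carry the carbon unit released from serine along the mitochondrial folate pathway. ASNS makes asparagine from aspartate, ALDH18A1 and PYCR1 catalyze the opening and closing steps of proline synthesis from glutamate, and CTH releases cysteine from cystathionine. Several of these genes are known targets of ATF4, a transcription factor of the integrated stress response whose translation rises when amino acids run short or the endoplasmic reticulum or mitochondria are stressed. Proliferating tumor cells use these pathways for protein, nucleotide and redox needs.

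Library totals ranged from 18863889 to 26436889 counts in SW1783 and from 15941276 to 33866683 counts in HT29. Vimentin (VIM) lay between 4076 and 4975 CPM (counts per 1000000 counts of the library) in SW1783 and at 0.133 CPM or less in HT29, and the epithelial gene EPCAM lay between 452 and 585 CPM in HT29 and at 0.202 CPM or less in SW1783, as the labels name them. High dose replicate 2 of HT29 was the smallest library and stood apart from the other high dose libraries, so HT29 high dose changes of most enzyme genes are also given without it. Ranks, medians, most dose steps and most differences between the lines are given only with it. Vehicle libraries that carry 1 replicate number in both batches were closer to each other (chi-square per degree of freedom over genes of 1.46 to 1.64) than any libraries within a group (1.68 or more). They still differed by more than sampling noise, and nothing states whether they share a culture. No source states that replicates came from separate cultures, so p-values measure the spread between these libraries, which may be technical. The mitochondrial ribosomal RNAs took 0.93% of counts in SW1783 vehicle and 3.15%, 7.83% and 5.93% at the low, medium and high dose, and 1.18%, 1.08%, 2.1% and 12% in HT29. Their part in the results was not tested. The median log2 fold change over all genes tested lay between -0.012 and 0.014 in the 8 treatment comparisons, and scaling by the trimmed mean of M values moved it by 0.011 or less.

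All 10 enzyme genes had counts in both lines. Together they took 0.06% of all counts in the SW1783 vehicle libraries of batch B, then 0.066%, 0.114% and 0.154% at the low, medium and high dose. In HT29 they took 0.092% in vehicle and 0.096%, 0.097% and 0.145% at the same doses. With wortmannin the share was 0.06% in SW1783, as in its vehicle, and 0.082% in HT29 against 0.092% in its vehicle. In a bulk library, more cells that express a gene and more RNA per cell cannot be told apart. Pseudogene copies of these genes held at most 6 counts in any library. MTHFD2, PYCR1 and CTH each overlap 1 annotated gene on the same strand, so a part of their reads could be split with it.

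The promoters of ASNS and ALDH18A1 are shown because these genes stand at opposite ends of the response. Both are the 250 bases before the RefSeq start on GRCh38.p14, read 5′ to 3′ on the strand of the gene, and capitals mark the letters TGATGNAA, the form of the amino acid response element bound by ATF4 and C/EBP proteins. The ASNS window is chr7:97872409-97872658 and the ALDH18A1 window is chr10:95656712-95656961, both on the minus strand.
ASNS: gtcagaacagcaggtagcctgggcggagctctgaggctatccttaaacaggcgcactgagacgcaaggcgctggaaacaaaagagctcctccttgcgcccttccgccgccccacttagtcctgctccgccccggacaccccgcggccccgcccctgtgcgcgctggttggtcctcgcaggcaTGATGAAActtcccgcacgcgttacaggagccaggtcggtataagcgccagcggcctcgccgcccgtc
ALDH18A1: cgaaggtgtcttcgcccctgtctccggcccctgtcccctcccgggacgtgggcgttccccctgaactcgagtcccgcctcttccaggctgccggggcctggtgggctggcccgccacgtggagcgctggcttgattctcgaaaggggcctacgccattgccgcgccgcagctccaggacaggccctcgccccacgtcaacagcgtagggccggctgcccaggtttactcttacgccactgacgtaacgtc
The match in ASNS lies at position -68 from the start. Of the 35116 RefSeq promoter windows searched on both strands, 250 bases before to 50 after each start, 1270 (3.62%) hold TGATGNAA or its reverse TTNCATCA. Of the 6 enzyme genes with an entry (ASNS, PHGDH, PSAT1, MTHFD2, ALDH18A1 and CTH), only ASNS holds it, in 1 of its 2 windows. PHGDH, PSAT1, MTHFD2 and CTH hold no match and also rose at the high dose in both lines. The part of these letters in the response was not tested. PSPH, SHMT2, ALDH1L2 and PYCR1 have no entry.

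ASNS, asparagine synthetase (ENSG00000070669, chr7:97851677-97872542, minus strand), showed the largest change of the 10 at the high dose in both lines. In SW1783 its normalized counts (counts divided by the size factor of the library) were 1031, 1028 and 1004 in vehicle, 1356, 1422 and 1329 at the low dose, 4139, 4227 and 4324 at the medium dose and 7287, 7527 and 7590 at the high dose. The 4 groups did not overlap and stood in the order of the dose. A gene was called where the adjusted p of the DESeq2 Wald test was under 0.05 and the change exceeded 1.5-fold. The high dose rise was 7.32-fold (log2 fold change 2.87 ± 0.04 SE, adjusted p below what the software prints, n = 3 per group), the medium dose rise was 4.14-fold (2.05 ± 0.04), and the low dose value of 0.42 ± 0.05 (adjusted p = 1.34e-17) stayed under the fold threshold. In HT29 the counts were 1336, 1354 and 1367 in vehicle, 1381, 1335 and 1516 at the low dose, 1546, 1530 and 1546 at the medium dose and 4952, 7238 and 4988 at the high dose. Only the high dose libraries stood far above vehicle, replicate 2 highest. The high dose rise was 4.23-fold (2.08 ± 0.14, adjusted p = 3.93e-50), and it was 1.88 ± 0.06 on the log2 scale without replicate 2.

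PHGDH, the dehydrogenase that opens serine synthesis (ENSG00000092621, chr1:119648411-119744218, plus strand), had normalized counts of 677, 600 and 646 in SW1783 vehicle, 737, 792 and 770 at the low dose, 1394, 1451 and 1478 at the medium dose and 1717, 1786 and 1798 at the high dose. The groups again did not overlap. PHGDH rose 2.25-fold at the medium dose (1.17 ± 0.06, adjusted p = 1.65e-81) and 2.76-fold at the high dose (1.47 ± 0.06, adjusted p = 1.19e-131). HT29 libraries held 861, 708 and 635 in vehicle, 603, 692 and 757 at the low dose, 688, 653 and 651 at the medium dose and 1299, 1709 and 1289 at the high dose. The HT29 vehicle libraries were widely spread, and the low and medium dose libraries overlapped them. The HT29 high dose rise was 1.95-fold (0.96 ± 0.15, adjusted p = 4.52e-09), and 0.82 ± 0.12 without replicate 2.

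PSAT1, the aminotransferase of the same pathway (ENSG00000135069, chr9:78297125-78330093, plus strand), had 1257, 1292 and 1202 in SW1783 vehicle, 1679, 1684 and 1660 at the low dose, 4353, 4737 and 4415 at the medium dose and 5096, 5100 and 5196 at the high dose. Most of its rise was reached at the medium dose. The rise was 3.60-fold at the medium dose (1.85 ± 0.04) and 4.10-fold at the high dose (2.04 ± 0.04), both with an adjusted p below what the software prints. In HT29 it had 2395, 2343 and 2502 in vehicle, 2550, 2321 and 2684 at the low dose, 2757, 2643 and 2633 at the medium dose and 6143, 7279 and 6351 at the high dose. The high dose libraries all stood above those of the other groups, with a rise of 2.73-fold (1.45 ± 0.08, adjusted p = 5.89e-66), and 1.37 ± 0.07 without replicate 2.

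PSPH, the phosphatase that releases serine (ENSG00000146733, chr7:56011051-56051604, minus strand), moved least of the 3 serine genes. In SW1783 it had 466, 554 and 531 in vehicle, 494, 544 and 485 at the low dose, 718, 732 and 691 at the medium dose and 759, 805 and 796 at the high dose. The low dose overlapped vehicle and the upper doses stood above it. The high dose rise was 1.52-fold (0.60 ± 0.08, adjusted p = 8.78e-14), but it was 0.54 and under the fold threshold without vehicle replicate 1, and the medium dose value was 0.46 ± 0.08 (adjusted p = 7.77e-08). The HT29 counts were 1092, 981 and 1012 in vehicle and 1205, 1962 and 1369 at the high dose. The difference was 0.55 ± 0.15 (adjusted p = 0.00583), under the fold threshold, and 0.33 ± 0.08 without replicate 2, while it passed at 0.69 without high dose replicate 1, at 0.62 without high dose replicate 3 and at 0.60 without vehicle replicate 1.

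SHMT2, which moves a carbon unit from serine to folate in mitochondria (ENSG00000182199, chr12:57229573-57234935, plus strand), had 2131, 2081 and 2134 in SW1783 vehicle, 2350, 2496 and 2511 at the low dose, 3309, 3532 and 3625 at the medium dose and 4324, 4241 and 4607 at the high dose. The groups did not overlap. The rise was 1.65-fold at the medium dose (0.72 ± 0.04, adjusted p = 1.25e-56) and 2.08-fold at the high dose (1.05 ± 0.04, adjusted p = 1.01e-123). In HT29 it had 5728, 5304 and 5238 in vehicle and 8121, 8542 and 7784 at the high dose. The HT29 high dose rise of 1.50-fold (0.59 ± 0.06, adjusted p = 9.07e-19) lay at the threshold. It fell under it with edgeR (0.58), with scaling by the trimmed mean of M values (0.58), without vehicle replicate 2 (0.57) or 3 (0.56), and without high dose replicate 2 (0.55).

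MTHFD2, the mitochondrial methylene-tetrahydrofolate dehydrogenase (ENSG00000065911, chr2:74186172-74217565, plus strand), had 1860, 1842 and 1826 in SW1783 vehicle, 1928, 2000 and 1939 at the low dose, 3614, 3682 and 3581 at the medium dose and 5435, 5740 and 5580 at the high dose. The low dose libraries stood just above vehicle and the upper doses far above. The rise was 1.97-fold at the medium dose (0.98 ± 0.04, adjusted p = 1.25e-146) and 3.03-fold at the high dose (1.60 ± 0.04). HT29 counts were 3630, 3521 and 3474 in vehicle and 5341, 7554 and 5410 at the high dose. Replicate 2 was again highest, and the rise was 1.72-fold (0.78 ± 0.12, adjusted p = 1.75e-08) with it and 0.60 ± 0.06 on the log2 scale without it.

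ALDH1L2, the mitochondrial 10-formyl-tetrahydrofolate dehydrogenase (ENSG00000136010, chr12:105019784-105107643, minus strand), was the enzyme gene that differed most between the lines. In SW1783 it had 388, 403 and 359 in vehicle, 526, 488 and 549 at the low dose, 1280, 1243 and 1344 at the medium dose and 1959, 1926 and 2083 at the high dose. The groups stood in the order of the dose with no overlap, and the rise was 3.36-fold at the medium dose (1.75 ± 0.07, adjusted p = 3.92e-133) and 5.18-fold at the high dose (2.37 ± 0.07, adjusted p = 1.11e-256). In HT29 it had only 9.27, 16.8 and 9.58 in vehicle and 12, 10.3 and 6.72 at the high dose. These overlapped, and the difference of -0.39 ± 0.51 (95% interval -1.39 to 0.62, adjusted p = 0.759) was not resolved at so low a count.

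PYCR1, the reductase that completes proline (ENSG00000183010, chr17:81932384-81942412, minus strand), had 1480, 1541 and 1669 in SW1783 vehicle, 1709, 1931 and 1818 at the low dose, 2620, 2786 and 2781 at the medium dose and 3347, 3635 and 3759 at the high dose. It rose 1.75-fold at the medium dose (0.80 ± 0.06, adjusted p = 3.59e-45) and 2.29-fold at the high dose (1.20 ± 0.06, adjusted p = 1.2e-102). HT29 libraries had 2853, 2728 and 2671 in vehicle and 3694, 3721 and 3677 at the high dose. The HT29 high dose libraries were close together and all above vehicle, but the difference of 0.43 ± 0.06 (adjusted p = 3.5e-11) was under the fold threshold.

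ALDH18A1, the synthase that opens proline synthesis (ENSG00000059573, chr10:95605941-95656711, minus strand), was the exception among the 10. In SW1783 it had 2729, 2685 and 2709 in vehicle, 2609, 2626 and 2710 at the low dose, 2462, 2471 and 2392 at the medium dose and 2377, 2318 and 2371 at the high dose. The medium and high dose libraries lay below every vehicle library, by log2 fold changes of -0.15 ± 0.04 (adjusted p = 0.00052) and -0.20 ± 0.04 (adjusted p = 4.01e-07), both under the fold threshold. In HT29 it had 4321, 4482 and 4438 in vehicle, 4671, 4991 and 5034 at the low dose, 4948, 5012 and 5036 at the medium dose and 4784, 4786 and 4686 at the high dose. All 3 doses lay above vehicle there, with values of 0.15 ± 0.04, 0.18 ± 0.04 and 0.11 ± 0.05, none past the fold threshold.

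CTH, cystathionine gamma-lyase (ENSG00000116761, chr1:70411218-70439851, plus strand), had 128, 154 and 128 in SW1783 vehicle, 113, 131 and 135 at the low dose, 320, 323 and 341 at the medium dose and 780, 761 and 779 at the high dose. The low dose did not separate from vehicle, and the high dose libraries stood above all others. The rise was 2.39-fold at the medium dose (1.26 ± 0.11, adjusted p = 2.6e-26) and 5.63-fold at the high dose (2.49 ± 0.11, adjusted p = 1.73e-114). HT29 had 80.8, 83.4 and 96.8 in vehicle and 139, 183 and 158 at the high dose. The HT29 rise was 1.82-fold (0.86 ± 0.17, adjusted p = 2.09e-05), and 0.77 ± 0.20 without replicate 2.

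**Figure D1:**
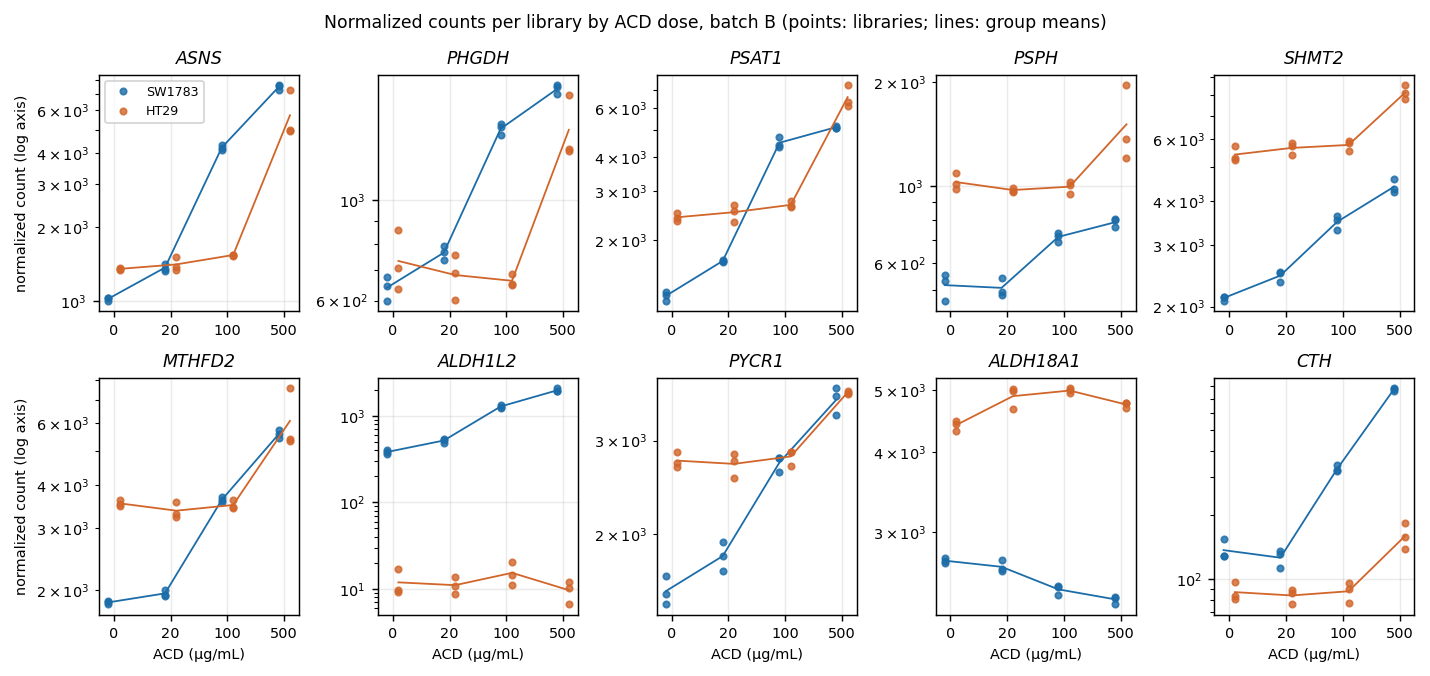
Normalized counts (log axis) of the 10 enzyme genes in each batch B library against ACD dose in µg/mL, with dose steps evenly spaced, 0 for vehicle, blue for SW1783, orange for HT29 and lines through the group means; the lines were scaled in separate fits. ASNS in SW1783 climbs from between 1004 and 1031 in vehicle to between 7287 and 7590 at 500 µg/mL, whereas in HT29 it stays at 1546 or less up to 100 µg/mL.

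In SW1783 at the high dose, 9 of the 10 enzyme genes rose and none fell. Over all 20092 genes tested, 17.6% were called, and 8.39% were called higher. Among 11263 genes with a mean normalized count of at least 100, ASNS ranked 28 from the top by fold change, CTH 41, ALDH1L2 46, PSAT1 69, MTHFD2 135, PHGDH 155, PYCR1 256, SHMT2 337, PSPH 1065 and ALDH18A1 8042. At the medium dose 8 rose and none fell, against 3.82% of genes called and 2.34% called higher, and ASNS ranked 12, PSAT1 19, ALDH1L2 23, CTH 38, PHGDH 46, MTHFD2 70, PYCR1 107, SHMT2 139, PSPH 350 and ALDH18A1 9043. PSPH and ALDH18A1 were the genes not called there. The median log2 fold change of the 10 was 1.53 at the high dose, 1.07 at the medium dose and 0.22 at the low dose.

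At the low dose in SW1783 none of the 10 was called by DESeq2 or edgeR, where 0.118% of all genes were called. An unadjusted p under 0.05 was reached by 7 of them and an adjusted p under 0.05 by 6 (ASNS, PHGDH, PSAT1, SHMT2, ALDH1L2 and PYCR1), all 6 higher in every low dose library than in any vehicle library. Over all genes tested, 14.1% had all low dose libraries above all vehicle libraries. The largest of these values were 0.44 ± 0.08 for ALDH1L2 (adjusted p = 1.54e-06) and 0.42 for ASNS and PSAT1. All 3 dose comparisons of a line share the vehicle libraries. The share of all genes under a p threshold alone is not given, here or in the comparisons below.

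In HT29 at the high dose, 6 of the 10 rose (ASNS, PHGDH, PSAT1, SHMT2, MTHFD2 and CTH) and none fell, against 3.16% of all genes called and 1.38% called higher. Without replicate 2, 5 were called, SHMT2 being lost. ASNS ranked 11 from the top among 10927 genes, PSAT1 18, PHGDH 48, CTH 62, MTHFD2 79, SHMT2 147, PSPH 170, PYCR1 291 and ALDH18A1 3596, with ALDH1L2 under the minimum mean of 100 and not ranked. The median over the 10 was 0.69. At the medium dose, none was called by DESeq2 or edgeR, where 0.792% of all genes were called, and 1 had an unadjusted p under 0.05 (ALDH18A1, adjusted p = 0.00586). Over the 6 low and medium dose libraries, MTHFD2 ranged from 3241 to 3621 normalized counts, SHMT2 from 5415 to 5911, PYCR1 from 2554 to 2861, PSPH from 950 to 1032 and CTH from 76.7 to 95.8, each range overlapping that of vehicle. The medium dose value of ASNS was 0.19 ± 0.14 (95% interval -0.08 to 0.46). The fit shares 1 estimate of spread per gene over all doses, so this interval also reflects the high dose libraries. ASNS, PSAT1 and ALDH18A1 had all medium dose libraries above all vehicle libraries, as did 14.3% of all genes tested. At the low dose, none was called by either tool against 0.287% of all genes, 1 had an unadjusted p under 0.05, and the median of the 10 was -0.03.

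**Figure D2:**
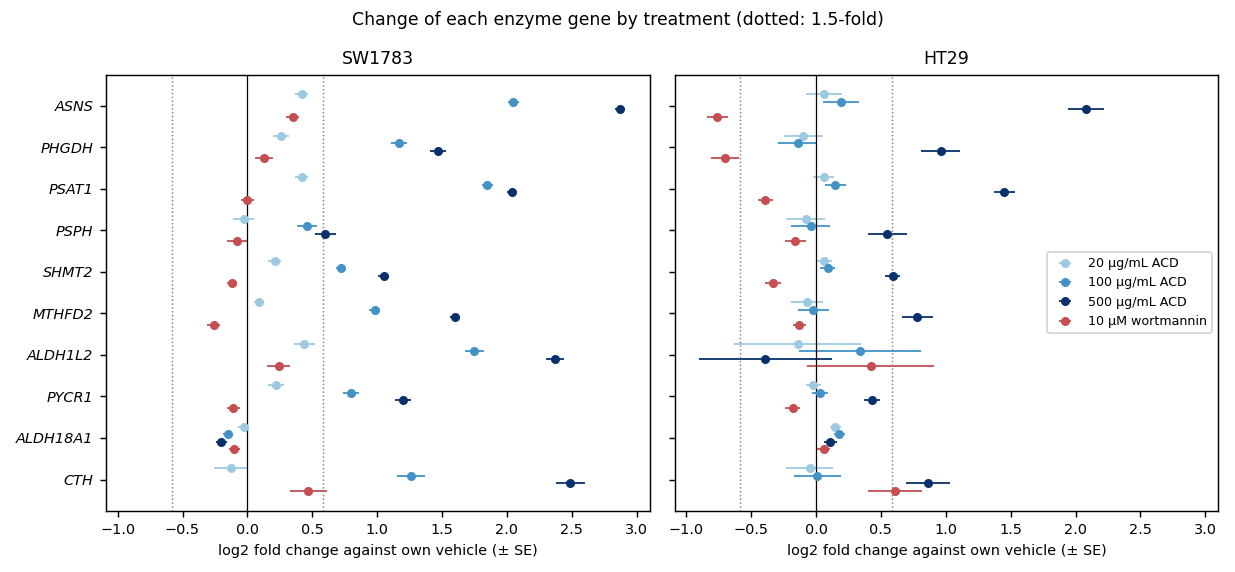
Log2 fold changes with standard errors of each enzyme gene against the vehicle of its own batch, by treatment (colors), for SW1783 on the left and HT29 on the right, with dotted lines at 1.5-fold. In SW1783 the 100 µg/mL and 500 µg/mL points lie right of the others for every gene except ALDH18A1, and in HT29 only the 500 µg/mL points lie past the dotted line on the right, beside CTH with wortmannin.

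The step from the medium to the high dose set the genes apart. In SW1783, 4 rose further: CTH by 1.24 ± 0.09, ASNS by 0.82 ± 0.03, ALDH1L2 by 0.63 ± 0.06 and MTHFD2 by 0.62 ± 0.03 on the log2 scale, against 9.83% of all genes called between these doses and 4.42% called higher. PHGDH (0.29 ± 0.05), PSAT1 (0.19 ± 0.04), SHMT2 (0.33 ± 0.04) and PYCR1 (0.39 ± 0.05) had higher values at the high dose but stayed under the fold threshold, and PSPH differed by 0.14 ± 0.08 (adjusted p = 0.131). In HT29, 6 rose between the same doses against 0.699% of all genes called and 0.387% called higher, with ASNS at 1.89 ± 0.14 (3.71-fold), PHGDH at 1.11 ± 0.15, CTH at 0.85 ± 0.17, MTHFD2 at 0.80 ± 0.12 and PSPH at 0.60 ± 0.15 on the log2 scale, and PSAT1 2.46-fold higher. The PSPH value was close to the thresholds. Its call was lost with edgeR (0.60, adjusted p = 0.0948), which called 5 of the 10, with size factors from TMM (0.58), with the replicate block (0.58) and with only the groups compared (0.59), as well as without medium dose replicate 1 (0.56) or 2 (0.61) and without high dose replicate 2 (0.37).

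With wortmannin, none of the 10 was called in SW1783. In HT29 ASNS and PHGDH fell and CTH rose, and CTH was also higher in SW1783, under the fold threshold. In SW1783 ASNS had normalized counts of 1169, 1183 and 1171 in the vehicle of batch A and 1490, 1532 and 1483 with wortmannin. Every treated library lay above vehicle, but the difference of 0.35 ± 0.05 (adjusted p = 8.15e-10) was under the fold threshold. This absence of calls in SW1783 held for DESeq2 and edgeR, where 2.71% of all genes were called by DESeq2, although 7 had an unadjusted p under 0.05 and 6 an adjusted p under 0.05. CTH (0.47 ± 0.14) and ALDH1L2 (0.24 ± 0.09) were higher among these, and MTHFD2 (-0.26 ± 0.05), SHMT2 (-0.12 ± 0.04) and ALDH18A1 (-0.10 ± 0.04) were lower.

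In HT29, ASNS had 1318, 1248 and 1260 in vehicle and 784, 715 and 756 with wortmannin. PHGDH had 757, 647 and 639 in vehicle and 434, 401 and 417 with wortmannin. Neither overlapped its vehicle, and both fell, ASNS by 0.76 on the log2 scale (SE 0.08, adjusted p = 2.14e-20) and PHGDH by 0.70 (SE 0.11, adjusted p = 1.5e-09). Of the 10 enzyme genes, 7 lay wholly below vehicle and 2 wholly above, as did 23.9% and 21.1% of all genes tested. CTH moved the other way, from 81, 67.8 and 61.7 to 97.1, 113 and 108, a rise of 0.61 ± 0.21 (adjusted p = 0.0288). These 3 calls compare with 2.74% of all genes called. The CTH call was lost without any 1 of 5 of the 6 libraries (all but vehicle replicate 1, values 0.52 to 0.66) and against the vehicle of batch B (0.41). PSAT1 (-0.39 ± 0.06, adjusted p = 5.25e-08) and SHMT2 (-0.33 ± 0.06, adjusted p = 1.11e-06) were lower in every treated library but under the fold threshold.

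**Figure D3:**
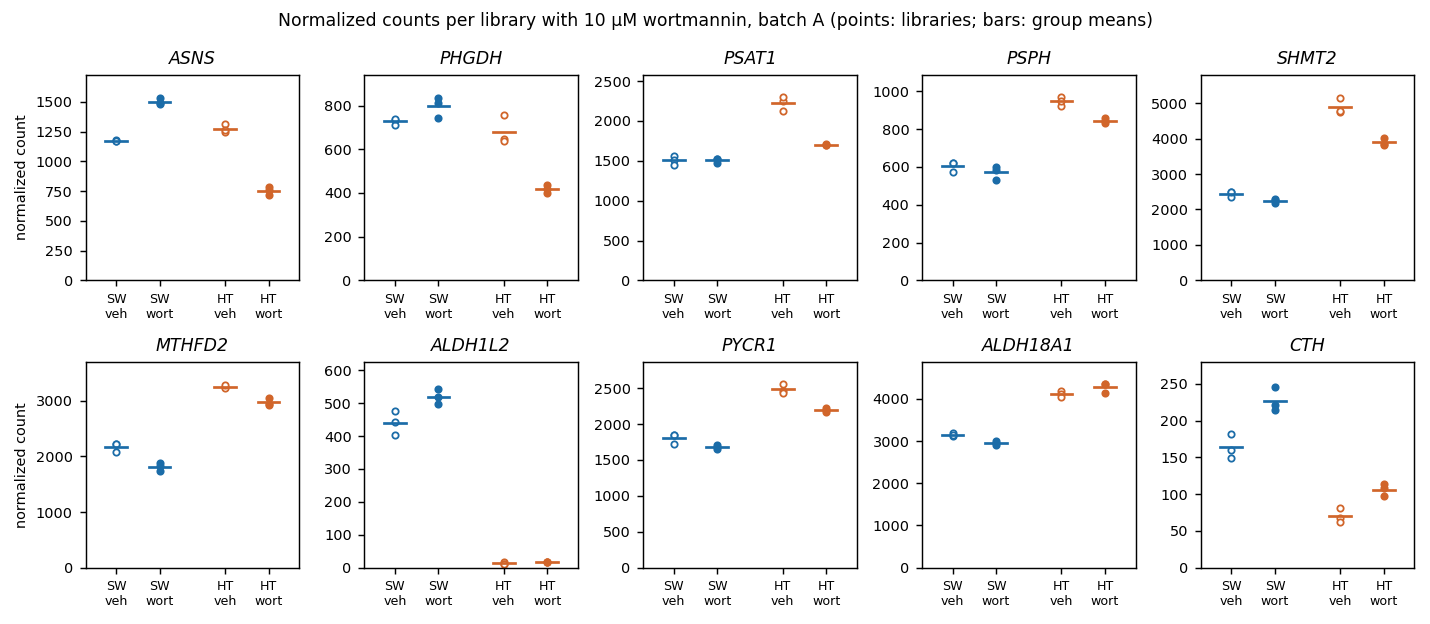
Normalized counts (linear axis from 0) of the enzyme genes in each batch A library, open points for vehicle (veh), filled points for 10 µM wortmannin (wort) and bars for group means, in SW1783 (SW, blue) and HT29 (HT, orange). In HT29 the wortmannin libraries of ASNS lie between 715 and 784, below the vehicle libraries between 1248 and 1318, and in SW1783 they lie above their vehicle.

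The vehicles of the 2 batches were also compared. None of the 10 was called in either line by DESeq2 or edgeR, none had an unadjusted p under 0.05, and the largest value was 0.20 ± 0.22 for CTH and -0.20 ± 0.54 for ALDH1L2, both in HT29. Of all genes, 0.00348% were called in SW1783 and 0.0% in HT29. Since vehicles with the same replicate number were closer to each other than libraries within a group, this comparison gives no measure of the spread behind the treatment differences.

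The starting levels differed between the lines. Per kilobase of the canonical transcript, SHMT2 was the most abundant of the 10 in SW1783 vehicle at 48.4 ± 0.52 CPM per kb (SD, n = 3), followed by ALDH18A1 at 39.9 ± 0.24, PYCR1 at 34 ± 2 and PSAT1 at 28 ± 1.1. ASNS (21.1 ± 0.35) and MTHFD2 (20.7 ± 0.22) came next and differed by less than the sum of their SDs, ahead of PHGDH (17 ± 0.99), PSPH (12.9 ± 1.2), CTH (3.23 ± 0.37) and ALDH1L2 (2.55 ± 0.16). In HT29 vehicle the order began in the same way with SHMT2 at 106 ± 3.3 and ended with CTH at 1.76 ± 0.19 and ALDH1L2 at 0.0679 ± 0.026 CPM per kb. At the high dose in SW1783, ASNS became the most abundant of the 10 at 143 ± 3.2 CPM per kb, beside SHMT2 at 92.9 ± 3.8 and PSAT1 at 106 ± 0.99. In HT29 at the high dose SHMT2 was at 144 ± 1.4, PSAT1 at 114 ± 7 and ASNS at 91.3 ± 17 CPM per kb.

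Tested between the vehicles of batch B, ALDH1L2 was higher in SW1783 by 5.16 ± 0.24 on the log2 scale (35.7-fold, adjusted p = 6.78e-99) and CTH by 0.90 ± 0.13. SHMT2 (-1.12 ± 0.05), PSPH (-0.75 ± 0.12), PSAT1 (-0.71 ± 0.06) and MTHFD2 (-0.70 ± 0.09) were lower in SW1783. These 6 calls stand against 50.7% of all genes called between the lines. ASNS (-0.17 ± 0.10, adjusted p = 0.146) and PHGDH (0.05 ± 0.11, adjusted p = 0.732) did not pass the test. PYCR1 (-0.57, adjusted p = 4.18e-21) and ALDH18A1 (-0.47, adjusted p = 5.15e-44) were lower in SW1783 but under the fold threshold. PYCR1 passed it under some alternatives, such as edgeR (-0.63).

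The difference in response between the lines was tested as an interaction, SW1783 minus HT29. At the medium dose 8 of the 10 responded more in SW1783, against 3.43% of all genes called and 1.83% called in that direction. The difference in log2 fold change was 1.84 for ASNS (95% interval 1.57 to 2.11), 1.67 for PSAT1 (1.50 to 1.84), 1.29 for PHGDH (0.99 to 1.59), 1.22 for CTH (0.87 to 1.57) and 0.97 for MTHFD2 (0.73 to 1.21). SHMT2 and PYCR1 differed by less, and ALDH1L2 by 1.41 (0.78 to 2.05) on the low HT29 counts given above. PSPH (0.48, interval 0.15 to 0.82, adjusted p = 0.042) and ALDH18A1 (-0.35, interval -0.44 to -0.26, adjusted p = 1.26e-11) stayed under the fold threshold. The call of ALDH1L2 was lost without HT29 vehicle replicate 2 (0.99), and that of SHMT2 (0.61) without HT29 vehicle replicate 1 (0.57), HT29 medium dose replicate 2 (0.58) or SW1783 medium dose replicate 3 (0.58).

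At the high dose 5 of the 10 responded more in SW1783 (ALDH1L2, CTH, MTHFD2, ASNS and PYCR1), against 14.6% of all genes called and 6.84% called in that direction. CTH differed by 1.59 (interval 1.27 to 1.92) and ASNS by 0.75 (0.48 to 1.02). PSPH differed by 0.01, with an interval of -0.32 to 0.34. PSAT1 at 0.55 (0.38 to 0.72) and PHGDH at 0.46 (0.16 to 0.76) were under the fold threshold, and passed it without HT29 high dose replicate 2 at 0.61 and 0.59. SHMT2 (0.43, adjusted p = 9.1e-08) and ALDH18A1 (-0.35, adjusted p = 5.44e-12) were under it as well. With wortmannin, ASNS (1.09, interval 0.95 to 1.24, adjusted p = 2.09e-45) and PHGDH (0.81, interval 0.59 to 1.03, adjusted p = 8.99e-11) differed between the lines, against 3.42% of all genes called and 0.884% called in that direction. CTH was not called there, and its difference lay between -0.25 and -0.08 over the alternatives.

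**Figure D4:**
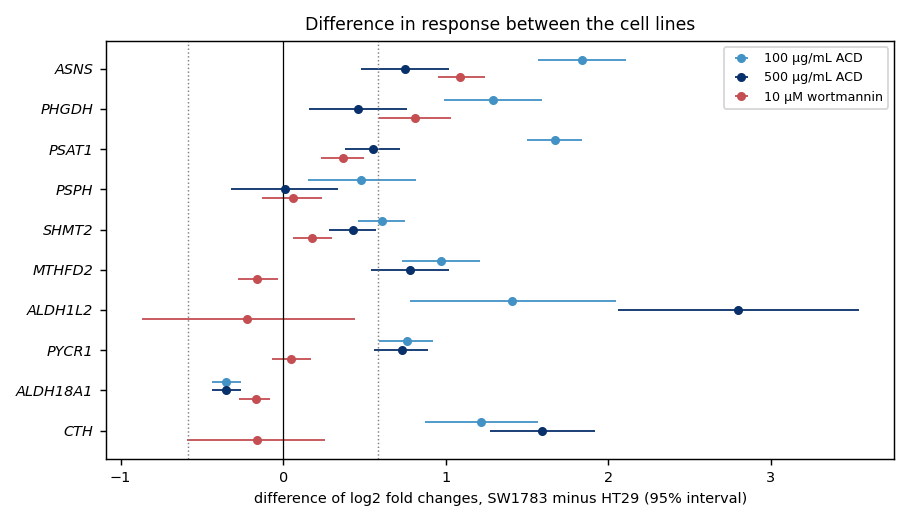
Difference of the log2 fold changes between the lines (SW1783 minus HT29) with 95% intervals for each enzyme gene, at 100 µg/mL and 500 µg/mL ACD and with wortmannin; dotted lines mark 1.5-fold. ASNS lies at 1.84, 0.75 and 1.09, ALDH18A1 lies left of 0 in all 3, and ALDH1L2 has the widest intervals.

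The other genes of these pathways were read as 4 lists of 45 genes in all. At the high dose in SW1783, 8 of the 45 rose and 6 fell, against 17.6% of all genes, with a median of 0.02. In the serine, glycine and one-carbon list, AMT of the glycine cleavage system (1.37 ± 0.20), MTHFD1L, the mitochondrial formate-producing ligase (1.10 ± 0.06), and SDSL (0.64 ± 0.12) rose. In the same list TYMS, thymidylate synthase (-1.14 ± 0.06), and SHMT1, the cytosolic counterpart of SHMT2 (-0.62 ± 0.08), fell. SHMT1 and SHMT2 thus moved in opposite directions. MTHFD2L, the close relative of MTHFD2, had a value of 0.29 ± 0.14 (adjusted p = 0.0808).

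In the proline list, PYCR3, a relative of PYCR1, fell (-0.72 ± 0.08). Of the aspartate, glutamate and alanine list, the transaminases GOT1 (1.76 ± 0.06), GPT2 (1.15 ± 0.07) and BCAT1 (0.61 ± 0.06) rose, and the asparaginase ASRGL1 fell (-0.61 ± 0.21, adjusted p = 0.0108). Of the methionine list, CBS, which acts just before CTH, rose (2.69 ± 0.12) and MAT2A, which makes S-adenosylmethionine, fell (-1.09 ± 0.03). CBS shares reads with its near-identical copy CBSL, which held at most 18 counts in any SW1783 library, so the split between them is uncertain.

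At the medium dose in SW1783, AMT (1.18 ± 0.20), MTHFD1L (0.61 ± 0.06), GOT1 (0.95 ± 0.06), GPT2 (0.85 ± 0.07) and CBS (1.91 ± 0.12) rose and TYMS fell (-0.68 ± 0.06). These 6 of the 45 compare with 3.82% of all genes called. At the low dose none of the 45 was called by DESeq2 and 1 by edgeR, where DESeq2 called 0.118% of all genes. Only 33 of the 45 were given an adjusted p there, and 10 had an unadjusted p under 0.05. With wortmannin in SW1783, TYMS (-0.68 ± 0.05) and SDSL (-0.59 ± 0.16) fell, where 2.71% of all genes were called. In HT29 at the high dose GPT2 (0.67 ± 0.08) and ASS1, argininosuccinate synthase (1.15 ± 0.14), rose, and none fell, against 3.16% of all genes called. With wortmannin ASS1 (0.94 ± 0.11) and ALDH1L1 (0.72 ± 0.15), the cytosolic counterpart of ALDH1L2, rose in HT29, against 2.74% of all genes called.

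**Figure D5:**
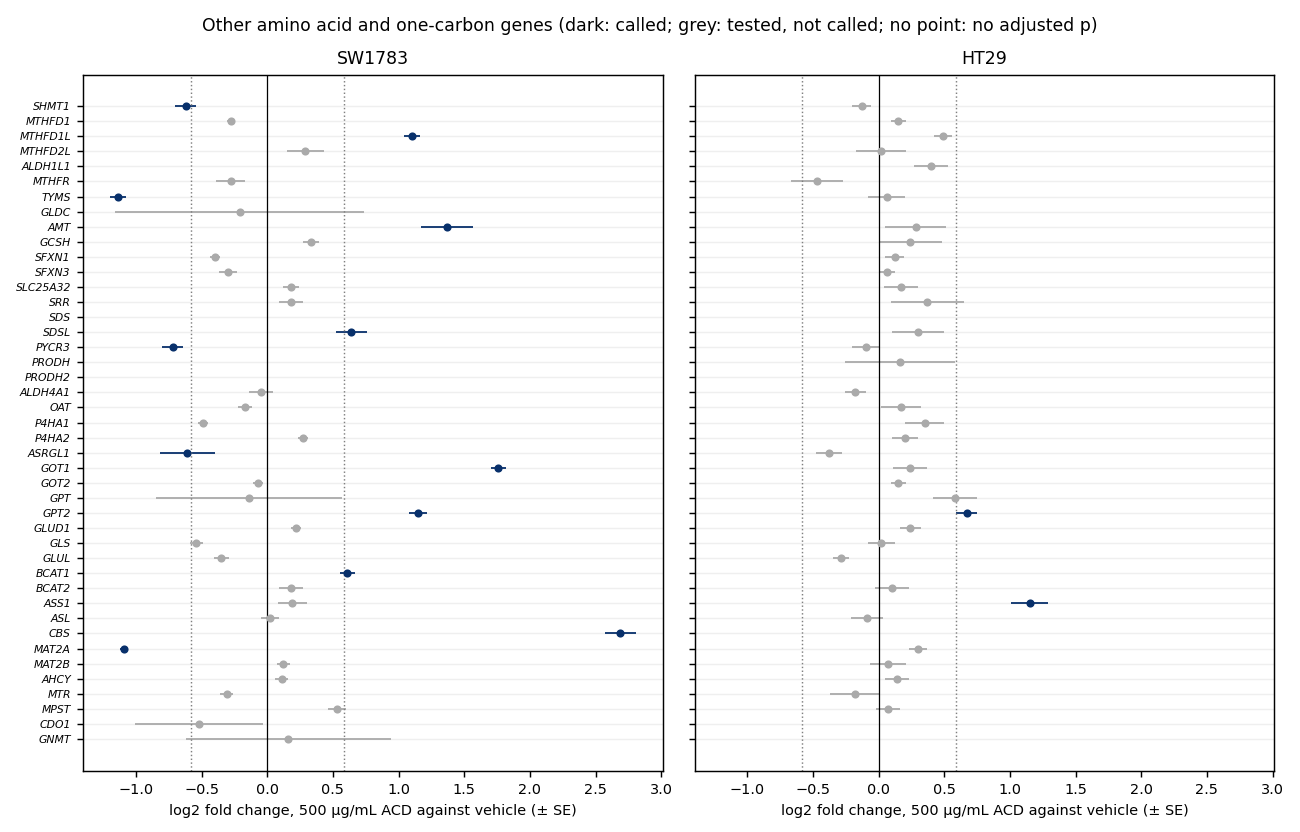
Log2 fold changes with standard errors of 43 other pathway genes at 500 µg/mL ACD against vehicle in SW1783 (left) and HT29 (right), dark where called, grey where tested and not called, with no point where no adjusted p was given; dotted lines mark 1.5-fold. In SW1783 CBS (2.69) and GOT1 (1.76) lie farthest right and TYMS (-1.14) farthest left, and in HT29 the called genes are ASS1 and GPT2.

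ATF4 and 8 further genes of the integrated stress response were read as a list. ATF4 had mean normalized counts of 2059 ± 34.3 (SD, n = 3) in SW1783 vehicle, 5571 ± 183 at the medium dose and 8380 ± 283 at the high dose, and rose by 1.44 ± 0.04 and 2.03 ± 0.04. At the high dose 8 of the 9 rose in SW1783, where 17.6% of all genes were called and 8.39% called higher, among them TRIB3 (4.31 ± 0.06) and DDIT3 (3.91 ± 0.06), and ATF5 had a value of -0.42 ± 0.08. At the medium dose 8 of the 9 rose as well, against 3.82% called and 2.34% called higher, and at the low dose NUPR1 (0.66 ± 0.11) and CHAC1 (0.69 ± 0.14), against 0.118% called. In HT29, 5 of the 9 rose at the high dose, against 3.16% called and 1.38% called higher, with CHAC1 at 2.99 ± 0.17 and ATF4 at 0.59 ± 0.08, and the ATF4 value was 0.50 ± 0.06 and under the fold threshold without replicate 2. DESeq2 and edgeR called none of the 9 in HT29 at the medium dose (0.792% of all genes called by DESeq2) or low dose (0.287%), or with wortmannin in SW1783 (2.71%) or HT29 (2.74%). An unadjusted p under 0.05 was given to 1, 0, 5 and 4 of the 9 in these comparisons.

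The mean log2(CPM + 1) of the 10 enzyme genes was set against every other gene outside the lists with a mean normalized count of at least 100. Over the 18 SW1783 libraries the closest were WARS1 (Pearson r = 0.997), SARS1 (0.996) and XPOT (0.996), the tryptophanyl- and seryl-tRNA synthetases and a tRNA exporter, then PCK2 and SLC38A1. Over the 18 HT29 libraries they were SARS1 (0.989), DDIT4 (0.985), IFRD1 (0.974), SLC3A2 (0.964) and GARS1 (0.953). Among the enzyme genes themselves, r lay between 0.88 and 1.0 for the 36 pairs without ALDH18A1 in SW1783, and ALDH18A1 was opposed to each of the others (r from -0.89 to -0.98). In HT29 the 36 pairs without ALDH18A1 ranged from -0.71 to 0.99, and each negative value among them involved ALDH1L2, whose counts there were low. Without ALDH1L2 as well, the 28 pairs ranged from 0.30 to 0.99. The r of ALDH18A1 in HT29 was 0.44 with ALDH1L2 and lay between -0.62 and -0.30 with the others. All r rest on CPM. Mean CPM of ALDH18A1 in HT29 was 182 ± 5.2 (SD) at the high dose and 187 ± 7.2 in vehicle, although its normalized counts were higher at that dose. These are descriptions, since the points share libraries and dose groups.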

How the data were processed

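Bulk mRNA from both cell lines was sequenced after 24 h of treatment. Per the study's methods, the authors used a directional library kit, trimmed with Trim Galore, used STAR for alignment (GRCh38) and RSEM for the gene values. The submitters' processing notes name FastQC 0.11.9, Trim Galore 0.6.5, STAR 2.7.3a and RSEM 1.3.3, and whether strand was used in counting is not given in the sources used here. The deposited values are RSEM expected counts, of which 8.84% were not whole, and they were rounded to whole numbers. RSEM shares reads among similar genes by estimate.

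Samples were grouped by their labels. DESeq2 1.42.0 (R 4.3.3) gave the two-sided Wald test of each treatment against the vehicle group of that batch, in 1 fit per line and batch (12 libraries in batch B, 6 in batch A). Differences in response between lines used 24 libraries (ACD) or 12 (wortmannin). Adjusted p-values are Benjamini-Hochberg over all genes of a comparison. The fits of the SW1783 high dose and of the line difference at that dose were run on simulated data with known changes and an assumed spread. These data held no outlying library and no change near the fold threshold, so they do not bear on such cases. Depth was 15941276 to 33866683 counts per library, and genes near 12 counts, such as ALDH1L2 in HT29, were imprecise.

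Each of the 10 enzyme genes has a paragraph, and not every one is named in each comparison. Of the other lists, the called genes with the largest change are named, at most 3 per direction, list and comparison, and the 5 genes most like the mean profile. Among the other pathway genes, 2 are counted but not reported here by name. The members and lists were chosen with earlier results of these data known. Alternatives were edgeR 4.0.16, TMM size factors, a low-count filter (10 counts in 3 libraries), a replicate block, only the groups compared, the vehicle of the other batch, no fold threshold and leaving out each library. Gene coordinates come from the GENCODE annotation of GRCh38 and promoter sequences from RefSeq.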

Additional observations from a re-analysis of the deposited data

Results flagged for a closer look

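The results below are differences in response between the 2 cell lines that passed the interaction test of DESeq2, given as the log2 fold change in SW1783 minus that in HT29. At the high dose these were ALDH1L2 at 2.80, CTH at 1.59, MTHFD2 at 0.78, ASNS at 0.75 and PYCR1 at 0.73. At the medium dose they were ASNS at 1.84, PSAT1 at 1.67, ALDH1L2 at 1.41, PHGDH at 1.29, CTH at 1.22, MTHFD2 at 0.97, PYCR1 at 0.76 and SHMT2 at 0.61. With wortmannin they were ASNS at 1.09 and PHGDH at 0.81. All are positive. For ASNS and PHGDH with wortmannin, the fold change was positive in SW1783 (0.35 and 0.13, neither called) and negative in HT29 (-0.76 and -0.70, both called). The lines were grown in different media, and the part of the medium cannot be told apart from that of the line. Groups of 3 libraries are too small for a test of single libraries that stand apart.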

How the results depend on the processing

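No value of an enzyme gene changed sign where it was called, under any alternative run. Dropping the fold threshold changed most counts. The share of all genes called at that setting is not given here, so the counts that follow have no background to be read against. Called enzyme genes then numbered 6 in SW1783 at the low dose, 6 in SW1783 with wortmannin, 1 in HT29 at the medium dose, 6 in HT29 with wortmannin and 8 between the high and medium dose in SW1783. For the differences between lines they numbered 9 at the high dose and 5 with wortmannin. The other pathway genes then numbered 30, 22 and 5 in SW1783 at the high, medium and low dose, 19 with wortmannin there, 9 in HT29 at the high dose and 14 with wortmannin there. With edgeR, 1 other pathway gene was called in SW1783 at the low dose. The cause of that last change was not tested. Leaving out 1 library at a time gave 8 to 9 enzyme genes at the high dose in SW1783, 5 to 7 in HT29, 2 to 3 with wortmannin in HT29, 5 to 7 for the difference between lines at the high dose, 7 to 8 at the medium dose and 6 to 7 between the vehicles of the lines. Other pathway genes in HT29 at the high dose numbered 2 to 4, with 4 reached without high dose replicate 3.

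Between treated and vehicle libraries of a batch, replicate numbers showed no steady pairing. Deviations of same-numbered libraries from their group means correlated between -0.12 and 0.05 in SW1783 and between -0.46 and 0.33 in HT29. With 3 libraries per group this check is weak, and pairing between the doses was not checked. Across batches, same-numbered vehicles were closer (chi-square per degree of freedom of 1.46 to 1.64) than those with other numbers (2.04 to 3.12 in SW1783, 4.0 to 17.68 in HT29). With the replicate number as a block, 9 enzyme genes were called at the high dose in SW1783 and 6 in HT29, 5 between the high and medium dose in HT29, 2 with wortmannin in HT29 (CTH was lost) and 7 between the vehicles of the lines. Depth limits ALDH1L2 in HT29 most, and 3 libraries per group limit all standard errors.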

Other observations

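Among the stress response genes with a RefSeq promoter entry, the letters TGATGNAA or their reverse were also found in CEBPG, at position -42 of 1 of its 2 windows, and in CHAC1, at position -209 on the opposite strand. CEBPG rose by 1.79 ± 0.04 at the high dose in SW1783 and had a value of 0.52 ± 0.09 in HT29, under the fold threshold. CHAC1 rose by 2.94 ± 0.13 in SW1783 and by 2.99 ± 0.17 in HT29. ATF4, DDIT3, TRIB3 and SESN2 hold no such letters in these windows and rose in both lines at the high dose. The HT29 value of ATF4 (0.59) was under the fold threshold without replicate 2 (0.50). ATF5 and CEBPB hold none either. ATF5 had values of -0.42 in SW1783 and -0.37 in HT29, and CEBPB rose in SW1783 and had a value of 0.38 in HT29. All of these values were under the fold threshold except the CEBPB rise in SW1783.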
